A study of Mus musculus with 16 samples.

Results

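Genes that interferons switch on, together with the genes of the MHC class I antigen presentation pathway, were followed in primary mouse mammary fibroblasts that carried or lacked the kinase MEKK1. A list of 51 gene symbols was set, each symbol was matched to the row of the same name in the deposited table of 18132 genes, and 48 were found. ISG15, IRGM and H2-D1 were not analysed here. The 4 groups were MEKK1+/+ and MEKK1-/- fibroblasts, left untreated in DMEM with 10% serum or exposed for 8 h to tumor-conditioned medium (TCM), in which cells of the human breast cancer line MDA-MB-231 had grown. All cultures came from inguinal mammary glands of female 129S6 mice aged 8 to 10 weeks, each group had 4 cultures, and each culture had its own Illumina Mouse 8 array. The methods give fewer mice per genotype than cultures per condition and do not tie a culture to a mouse, so p-values measure the spread between cultures, which may be technical. A comparison of the genotypes asks whether these genes depend on MEKK1, and a comparison of TCM with untreated cells asks whether they respond to factors released by tumor cells.

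Type I interferons signal through the kinases JAK1 and TYK2 to a complex of STAT2, IRF9 and a further STAT protein, which binds the interferon-stimulated response element (ISRE) in promoters of antiviral genes. Type II interferon (interferon gamma) signals through JAK1 and JAK2 to gamma-activated sequences (GAS), and both routes induce transcription factors of the IRF family. Their targets include sensors of viral RNA, enzymes that block viral replication, guanylate-binding proteins and immunity-related GTPases that attack intracellular pathogens, and the immunoproteasome and TAP transporter, which supply peptides to MHC class I molecules at the cell surface.

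The ISRE and GAS letters were looked for in the promoters of these genes, to describe what genes of different families share in sequence. The RefSeq windows of the GRCm38.p6 assembly, 250 bases before to 50 after a gene's start, covered 37 of the 48 genes in 44 windows. The reference sequence is that of another strain than 129S6. IIGP2 is listed there as Irgm2 and GBP1 as Gbp2b, and the other symbols matched directly. The ISRE letters GAAANNGAAA, searched on both strands, were in 19 of the 44 windows, or 43.2%, and in 3.44% of all 32851 windows. The GAS letters TTCNNNGAA, which read the same on either strand, were in 10 of the 44 windows, or 22.7%, and in 8.30% of all windows. The NF-kB motif was in 10 of the 44, or 22.7%, and in 8.46% of all windows. Matches of different motifs could overlap, and a match is a run of letters, not a measured binding site. The 250 bases before the start are shown for 5 genes with the ISRE letters, each from a family described below: IFIT3 (chr19:34583279-34583528, plus strand) and RSAD2 (chr12:26456453-26456702, minus strand), antiviral effectors with a wide spread between cultures; GBP3 (chr3:142559794-142560043, plus strand), a guanylate-binding protein; STAT2 (chr10:128270248-128270497, plus strand), a part of the ISRE-binding complex; and IRF2 (chr8:46739495-46739744, plus strand), which passed the test in MEKK1+/+ cells. H2-K1 (chr17:34000348-34000597, minus strand), whose window holds no ISRE letters, is shown for its NF-kB motif. Each sequence runs 5′ to 3′ along its gene's strand, and capitals mark only the motif that each was chosen for, on either strand, which is the ISRE in 5 and the NF-kB motif in H2-K1. The IRF2 window also holds the GAS letters and an NF-kB motif, left in lower case.
IFIT3: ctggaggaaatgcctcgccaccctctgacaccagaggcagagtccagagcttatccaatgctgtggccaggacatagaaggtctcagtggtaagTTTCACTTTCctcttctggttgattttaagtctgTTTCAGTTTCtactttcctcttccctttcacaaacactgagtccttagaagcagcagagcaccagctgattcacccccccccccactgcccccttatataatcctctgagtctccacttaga
RSAD2: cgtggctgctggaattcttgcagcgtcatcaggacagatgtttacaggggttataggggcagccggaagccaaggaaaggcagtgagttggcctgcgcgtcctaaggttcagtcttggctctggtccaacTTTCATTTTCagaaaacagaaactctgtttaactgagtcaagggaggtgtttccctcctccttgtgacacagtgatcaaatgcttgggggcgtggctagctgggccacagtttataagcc
GBP3: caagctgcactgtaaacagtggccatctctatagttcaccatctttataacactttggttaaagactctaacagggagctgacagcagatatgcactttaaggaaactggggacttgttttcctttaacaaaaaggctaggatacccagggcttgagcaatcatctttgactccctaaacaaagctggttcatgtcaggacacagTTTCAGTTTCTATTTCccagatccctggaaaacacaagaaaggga
STAT2: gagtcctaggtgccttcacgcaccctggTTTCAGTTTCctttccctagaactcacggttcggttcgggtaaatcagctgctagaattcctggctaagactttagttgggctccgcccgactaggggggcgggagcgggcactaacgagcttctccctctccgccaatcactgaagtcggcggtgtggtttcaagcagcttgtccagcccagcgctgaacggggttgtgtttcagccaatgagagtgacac
IRF2: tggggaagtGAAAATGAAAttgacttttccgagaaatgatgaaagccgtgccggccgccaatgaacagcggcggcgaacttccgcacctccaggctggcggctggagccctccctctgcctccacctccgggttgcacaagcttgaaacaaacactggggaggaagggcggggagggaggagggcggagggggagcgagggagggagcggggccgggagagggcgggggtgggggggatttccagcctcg
H2-K1: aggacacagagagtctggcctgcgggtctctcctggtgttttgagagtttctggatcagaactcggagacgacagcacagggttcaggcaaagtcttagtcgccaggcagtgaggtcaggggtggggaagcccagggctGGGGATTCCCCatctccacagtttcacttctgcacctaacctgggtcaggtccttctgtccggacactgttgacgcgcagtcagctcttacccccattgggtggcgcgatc

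Signal was judged against 1075 olfactory receptor genes, which these cells are not known to use, and the 99th percentile of their values on each array, 7.20 to 7.34 on the log2 scale, was taken as background. Of the 48 genes, 23 were above background on all 16 arrays, 20 on some arrays and 5 on none (IFIT1, MX1, OAS3, GBP4 and IIGP1). Over the whole table, 6923 of 18132 genes were above it on every array. The median intensity of an array as deposited lay between 114 and 170.1, so log2 intensities were quantile normalized, and all values below are on that scale, where a difference of 1 is a 2-fold difference. Of 12 fibroblast markers 11 were above background on every array, but so were 12 of 24 macrophage markers, which are described below. The cultures are thus called fibroblasts by their label. Of 14 lymphocyte and natural killer cell markers 12 were above background on no array. MAP3K1, the gene that encodes MEKK1, was not lower on arrays labelled MEKK1-/- (0.53 untreated, adjusted p = 0.466, and 0.33 with TCM, adjusted p = 0.605), so that genotype was taken from the labels. Probes of different genes are not compared in level, and how far a probe of a multigene family (IFIT, OAS, GBP or MHC class I genes) also reads its relatives is not given in the sources used here.

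Cultures of the same group differed widely in these genes. In MEKK1+/+ cells replicate 4 had the highest value of its group for 44 of the 48 genes when untreated and for 40 of 48 with TCM, where that array was the highest for 26.2% and 24% of all genes. Replicate 2 of the same genotype was the lowest for 39 genes untreated and for 28 with TCM. In MEKK1-/- cells replicate 2 was the highest of the untreated group for 35 genes, and replicate 1 was the lowest with TCM for 39. Relative to the mean of the other 3 cultures of its group, the median of the 48 genes on MEKK1+/+ replicate 4 was 0.96 untreated and 0.80 with TCM, and the median of all genes was -0.01 on both arrays. The replicate number with the highest values was thus the same in both media.

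**Figure D1:**
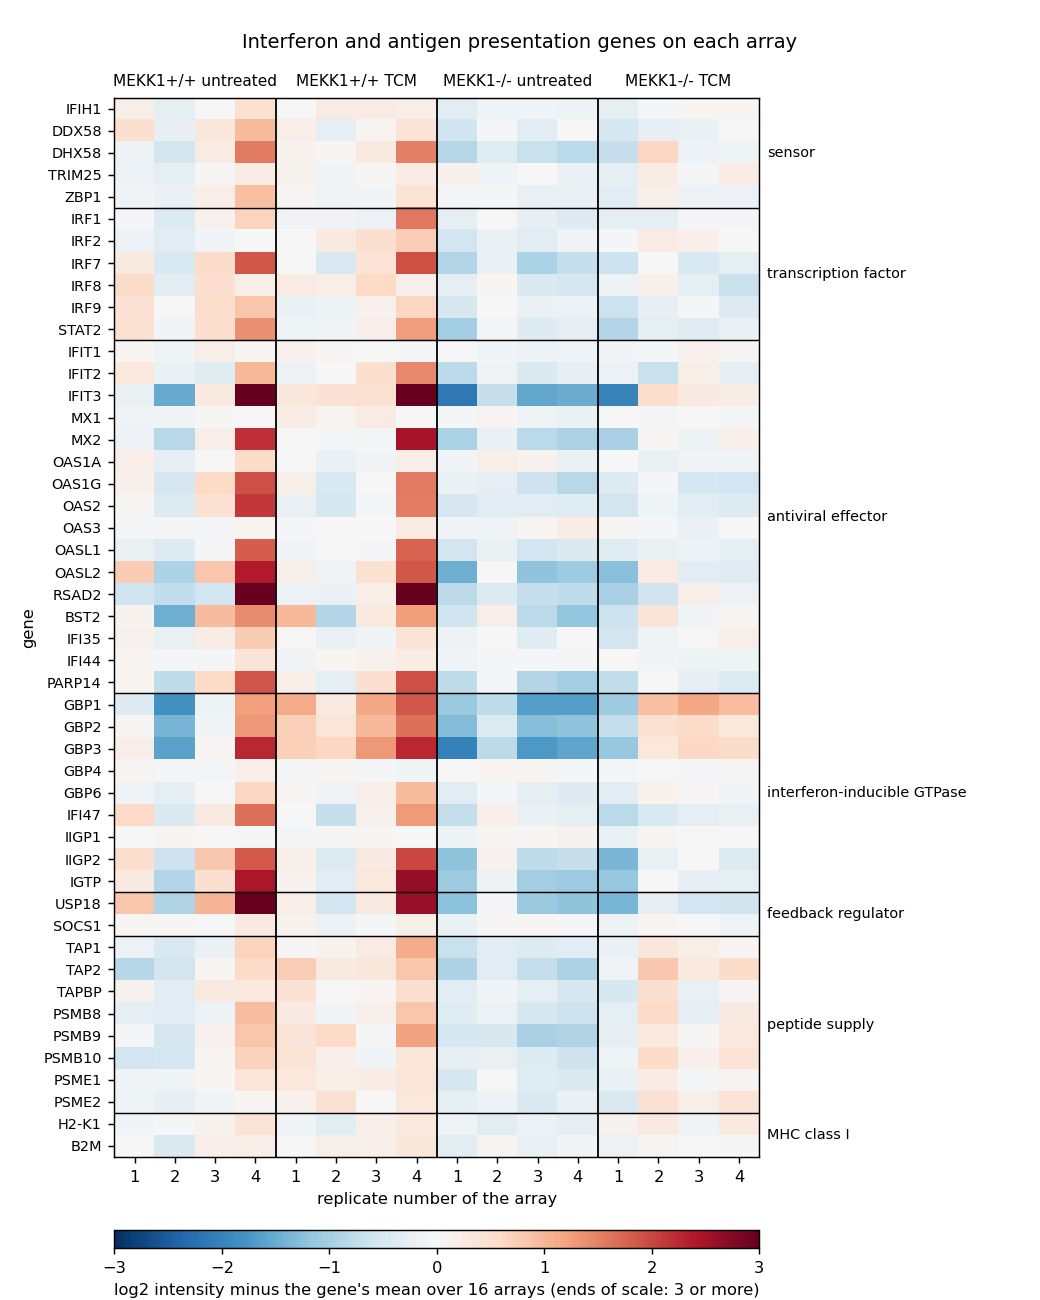
Heat map of the 48 genes, in rows ordered by role, on the 16 arrays, in columns grouped by genotype and treatment. Colour is the log2 intensity minus the mean of the gene over 16 arrays, red above and blue below it, and the column of MEKK1+/+ replicate 4 is the reddest in both treatments, with the highest value of its group for 44 and 40 of 48 genes.

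The size of this difference between cultures is plain in genes chosen here after their values were seen. RSAD2, or viperin, an enzyme that makes a chain-terminating nucleotide against viral polymerases, measured 7.25, 7.09, 7.26 and 10.80 on untreated MEKK1+/+ replicates 1 to 4 and 7.66, 7.63, 8.03 and 11.18 with TCM. IFIT3, which binds other IFIT proteins in recognition of viral RNA, measured 9.34, 8.04, 9.85 and 12.90 and 9.90, 9.97, 10.00 and 13.30 on the same arrays. In both genes replicate 4 stood apart from the other cultures in both media. On MEKK1-/- arrays RSAD2 measured 7.06, 7.43, 7.14 and 7.07 untreated and 6.87, 7.25, 8.02 and 7.67 with TCM, and IFIT3 measured 7.41, 8.86, 7.99 and 8.06 and 7.54, 10.07, 9.81 and 9.76. There IFIT3 was higher with TCM in replicates 2, 3 and 4, and close to its untreated value in replicate 1.

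Markers of other cell types also differed between these cultures. The 24 macrophage markers in the table, none of them among the 48 genes, had 12 members above background on every array and 4 on none (FCER1G, ITGAM, MSR1 and PTPRC). Their summed linear level ran from 35360 to 90041 on untreated MEKK1+/+ arrays, from 30289 to 83097 on MEKK1+/+ arrays with TCM, from 15271 to 72638 on untreated MEKK1-/- arrays and from 16070 to 63286 on MEKK1-/- arrays with TCM. MEKK1+/+ replicate 4, highest for the interferon genes, was below replicates 1 and 3 in mean log2 macrophage level in both media (9.18 in each, in groups from 8.69 to 9.66 and from 8.67 to 9.49). MEKK1+/+ replicate 2, lowest for most interferon genes, had the lowest macrophage level of its group, and MEKK1-/- replicate 2 the highest of its own. The 15 epithelial markers had a mean level of 8.78 and 8.76 on MEKK1-/- replicate 1 untreated and with TCM, and between 7.0 and 7.41 on the other 14 arrays, and their summed linear level was 14477 and 13205 against 1952 to 2785. Endothelial markers were also highest there (7.85 and 7.79). The part of these cells in the results below was not tested, and fewer cells of a type cannot be told apart from less RNA per cell.

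**Figure D2:**
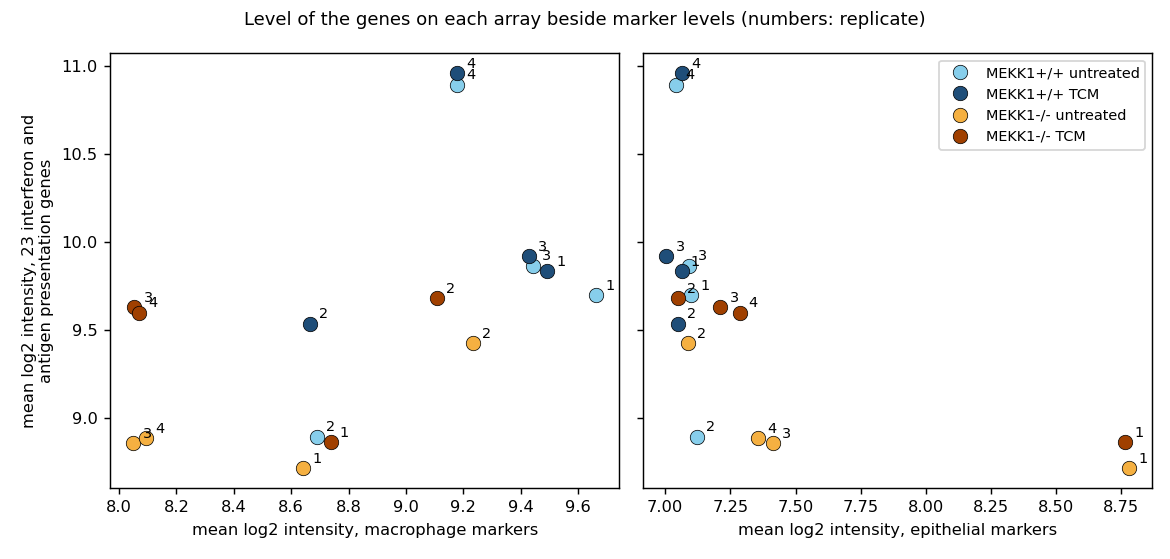
Mean log2 intensity of the 23 genes above background on every array (vertical axis) against the mean log2 intensity of 24 macrophage markers (left) and 15 epithelial markers (right), with a point for each of the 16 arrays, coloured by group and numbered by replicate. MEKK1+/+ replicate 4 lies highest at a middle macrophage level, and MEKK1-/- replicate 1 (8.72 and 8.87) lies low and far to the right for epithelial markers.

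In untreated cells the genes had lower means in MEKK1-/- than in MEKK1+/+ fibroblasts, but none passed the test. Means were lower for 46 of 48 genes, and 47.2% of all genes were lower. The median difference was -0.52, where that of all genes was 0.01. By limma with Benjamini-Hochberg adjustment 0 of 48 were called, as were 0% of all genes, and a z-test on z-scores, the kind of test the methods name, called 2 (IRF9 and PSMB9, both lower), where 4.51% of all genes were called. At an unadjusted limma p under 0.05, 17 of the 48 were lower, where 4.35% of all genes were, and 0 were higher. The 48 genes were read on the same arrays and are not independent. The difference between their share and that of all genes was therefore not tested, here or below. The groups did not overlap for 1 gene, H2-K1, where 2.01% of all genes were lower without overlap.

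Among transcription factors, 6 of 6 had lower means in untreated MEKK1-/- cells, with a median of -0.58. STAT2, a part of the ISRE-binding complex, measured 8.92, 8.37, 8.95 and 9.82 on untreated MEKK1+/+ arrays and 7.44, 8.43, 8.07 and 8.16 on untreated MEKK1-/- arrays, a difference of -0.99 (SE 0.33, adjusted p = 0.466). IRF9, its DNA-binding partner, measured 8.89, 8.43, 8.99 and 9.29 and 7.98, 8.45, 8.25 and 8.29, a difference of -0.66 (SE 0.20, adjusted p = 0.466). IRF7, the factor that amplifies type I interferon production, measured 7.98, 7.26, 8.26 and 9.58 and 6.83, 7.51, 6.77 and 7.01, a difference of -1.24 (SE 0.47, adjusted p = 0.499). In these 3 genes only replicate 2 of MEKK1+/+ fell within the MEKK1-/- range, and replicate 4 was the highest. IRF1, an early factor of the interferon gamma response, measured 9.25, 8.90, 9.46 and 9.98 and 9.06, 9.32, 9.08 and 8.92, and its groups overlapped (-0.30, SE 0.32, adjusted p = 0.783). IRF2, a relative of IRF1 that occupies the same promoter sites, measured 10.86, 10.69, 10.95 and 11.02 and 10.46, 10.84, 10.73 and 10.94 (-0.14, SE 0.14, adjusted p = 0.779). IRF8, a factor best known from macrophages and dendritic cells, measured 8.07, 7.20, 8.03 and 7.71 and 7.23, 7.60, 7.11 and 7.03 (-0.51, SE 0.20, adjusted p = 0.499), with replicate 2 of MEKK1+/+ again inside the range of MEKK1-/-.

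Of 16 antiviral effectors, 15 had lower means in untreated MEKK1-/- cells, with a median of -0.79, and of 5 sensors all had, with a median of -0.34. The widest difference of the 48 genes was that of IFIT3, -1.95 (SE 0.94, adjusted p = 0.542), whose values are given above. OASL1, which limits translation of IRF7, measured 7.20, 7.05, 7.39 and 9.25 and 6.88, 7.24, 6.86 and 6.99, near background in all cultures but MEKK1+/+ replicate 4 (-0.73, SE 0.44, adjusted p = 0.618). OAS1A, a synthase of the 2-5A messenger that activates RNase L, measured 7.07, 6.62, 6.84 and 7.41 and 6.77, 7.02, 6.97 and 6.67 and was above background on 1 of 16 arrays. IFIT1, which binds viral RNA caps, and MX1, a GTPase against RNA viruses that RefSeq lists as a transcribed pseudogene in the mouse assembly, were above background on no array and lay between 6.64 and 6.97 and between 6.67 and 6.97 in untreated cells of both genotypes. For these effectors the arrays gave no signal by which the genotypes could be ordered. DDX58, the RNA sensor RIG-I, measured 8.51, 7.78, 8.37 and 8.99 and 7.44, 8.00, 7.72 and 8.03, a difference of -0.61 (SE 0.22, adjusted p = 0.478), and its MEKK1+/+ replicate 2 lay within the MEKK1-/- range.

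Among 9 interferon-inducible GTPases 8 had lower means in untreated MEKK1-/- cells, with a median of -1.02, and both feedback regulators were lower too. GBP2, a guanylate-binding protein that coats pathogen vacuoles, measured 9.16, 7.74, 9.05 and 10.43 and 7.82, 8.71, 7.86 and 7.92 (-1.02, SE 0.45, adjusted p = 0.525). GBP3 measured 9.55, 7.74, 9.39 and 11.60 and 7.31, 8.56, 7.63 and 7.76 (-1.75, SE 0.64, adjusted p = 0.494). MEKK1+/+ replicate 2 lay below every MEKK1-/- array in GBP2 and within their range in GBP3, and replicate 4 was on top in both. IIGP1, an immunity-related GTPase, was above background on no array, and lay between 6.53 and 6.81 in untreated cells of both genotypes. USP18, the protease that strips ISG15 from proteins and dampens the type I receptor, measured 9.75, 8.03, 9.95 and 11.91 and 7.70, 8.87, 7.81 and 7.71, a difference of -1.89 (SE 0.71, adjusted p = 0.498). SOCS1, an inhibitor of JAK kinases, stayed near background, at 7.20, 7.20, 7.15 and 7.43 and 6.98, 7.20, 7.21 and 7.14 (-0.11, SE 0.09, adjusted p = 0.712).

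Peptide supply and MHC class I genes differed less in size, and 6 of them lie in the MHC region of chromosome 17 (TAPBP, H2-K1, PSMB9, TAP1, PSMB8 and TAP2, in that order). Here 8 of 8 and 2 of 2 had lower means, with medians of -0.39 and -0.22. TAP1, which with TAP2 forms the peptide transporter of the endoplasmic reticulum, measured 7.50, 7.22, 7.49 and 8.36 on MEKK1+/+ and 7.02, 7.36, 7.30 and 7.37 on MEKK1-/- arrays (-0.38, SE 0.24, adjusted p = 0.641). TAP2 measured 9.75, 10.06, 10.67 and 11.20 and 9.69, 10.30, 9.90 and 9.68 (-0.53, SE 0.27, adjusted p = 0.563). PSMB8, a catalytic subunit of the immunoproteasome, measured 7.49, 7.45, 7.62 and 8.69 and 7.39, 7.60, 7.28 and 7.15 (-0.46, SE 0.27, adjusted p = 0.608), with MEKK1+/+ replicate 4 alone above 8. In each of these 3 genes the genotypes overlapped. PSME1, a subunit of the PA28 activator that opens the proteasome, measured 11.00, 10.98, 11.18 and 11.48 and 10.60, 11.09, 10.75 and 10.67 (-0.38, SE 0.12, adjusted p = 0.466). H2-K1, an MHC class I heavy chain, measured 7.29, 7.32, 7.48 and 7.77 and 7.27, 7.05, 7.20 and 7.08, a difference of -0.32 (SE 0.13, adjusted p = 0.520). Its groups did not overlap, with a 2-sided exact permutation p of 0.0286, the smallest that 4 arrays against 4 can give, yet most of these values lay near background. B2M, the light chain of MHC class I, measured 13.53, 13.08, 13.65 and 13.69 and 13.19, 13.58, 13.29 and 13.43 (-0.12, SE 0.12, adjusted p = 0.787), and on z-scores its sign turned.

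The direction of this comparison held on other scales, with 44 of 48 genes lower on values as deposited and on values scaled to the same median, and 43 of 48 on z-scores. Its size rested partly on MEKK1+/+ replicate 4. Without both replicate 4 arrays of MEKK1+/+ the median was -0.27, 44 of 48 genes were lower, 0 were called, and 15 were lower at an unadjusted p under 0.05, where 3.51% of all genes were. Without both replicate 1 arrays of MEKK1-/-, those with high epithelial markers, the median was -0.47, 46 were lower, 0 were called and 13 were lower at that unadjusted p, where 3.19% of all genes were. Macrophage markers had a median difference of -0.76 in the same comparison, with 21 of 24 lower, 11 of them at an unadjusted p under 0.05 and 0 called. The part of macrophages in the lower levels was not tested.

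**Figure D3:**
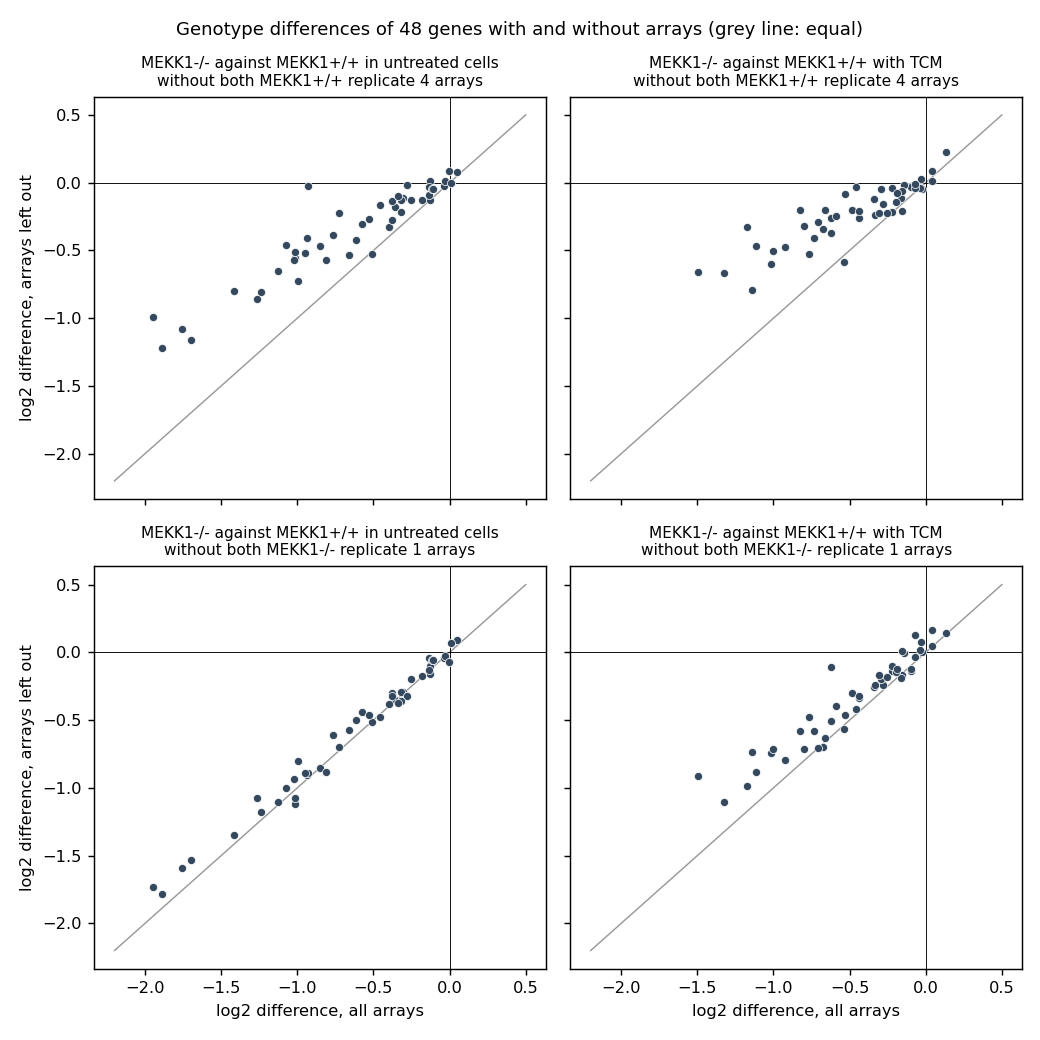
Log2 difference between genotypes (MEKK1-/- minus MEKK1+/+) of each of the 48 genes with all 16 arrays (horizontal) and with 2 arrays left out (vertical), untreated at left and with TCM at right. Points above the grey line of equality moved towards 0, as most did without MEKK1+/+ replicate 4 (top), where the medians went from -0.52 to -0.27 and from -0.39 to -0.21.

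With TCM the genes again mostly had lower means in MEKK1-/- cells, and again none passed the test. Means were lower for 45 of 48 genes (33 on values as deposited), and 48.4% of all genes were lower, with a median of -0.39 for the 48 and 0.00 for all genes. By limma 0 of 48 were called, where 0.00552% of all genes were, and the z-test called 0 as well, where it called 2.54% of all genes. At an unadjusted p under 0.05, 4 were lower (IRF8, IRF9, STAT2 and MX1, the last below background on every array), where 3.65% of all genes were, and 0 were higher. The groups did not overlap for 4 genes (OASL1, IRF8, STAT2 and GBP3), all lower in MEKK1-/- cells, where 1.85% of all genes were lower without overlap. Both comparisons use separate arrays, but MEKK1+/+ replicate 4 was the highest of its group for most genes in both, so they were not taken as independent of each other.

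STAT2 measured 8.33, 8.37, 8.61 and 9.72 on MEKK1+/+ arrays with TCM and 7.57, 8.19, 8.09 and 8.27 on MEKK1-/- arrays, a difference of -0.73 (SE 0.33, adjusted p = 0.605). GBP3 measured 10.05, 9.96, 10.64 and 11.60 and 8.20, 9.65, 9.95 and 9.89 (-1.14, SE 0.64, adjusted p = 0.660), with the lowest MEKK1+/+ array barely above the highest MEKK1-/- array. IRF8 measured 7.78, 7.73, 8.13 and 7.70 and 7.38, 7.69, 7.26 and 6.88 (-0.53, SE 0.20, adjusted p = 0.538), a gap of similar narrowness. In OASL1, at 7.34, 7.41, 7.37 and 9.19 and 7.06, 7.23, 7.26 and 7.13, the difference of -0.66 (SE 0.44, adjusted p = 0.706) went with MEKK1+/+ replicate 4, the only array above 8. Each of these 4 genes had the exact permutation p of 0.0286, the smallest possible here, and none had an adjusted p under 0.05.

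Other genes overlapped between the genotypes with TCM. IRF7 measured 7.70, 7.25, 8.11 and 9.61 on MEKK1+/+ and 7.09, 7.72, 7.26 and 7.41 on MEKK1-/- arrays. IRF9 measured 8.25, 8.30, 8.59 and 9.09 and 7.82, 8.20, 8.40 and 8.06. IRF1 measured 9.21, 9.22, 9.15 and 10.91 and 9.04, 9.05, 9.30 and 9.27. All 3 factors had their highest value on MEKK1+/+ replicate 4. USP18 measured 9.13, 8.35, 9.20 and 11.54 and 7.55, 8.67, 8.35 and 8.34 (-1.33, SE 0.71, adjusted p = 0.648). GBP2 measured 9.84, 9.48, 10.10 and 10.77 and 8.42, 9.59, 9.68 and 9.44 (-0.77, SE 0.45, adjusted p = 0.667). MEKK1-/- replicate 1 was the lowest of its group for each of these 5 genes. DDX58 measured 8.23, 7.75, 8.10 and 8.42 and 7.51, 7.78, 7.85 and 8.04. SOCS1 measured 7.28, 7.003, 7.11 and 7.36 and 7.02, 7.22, 7.19 and 7.05, near background. OAS1A was at 6.87, 6.67, 6.78 and 7.06 and 6.87, 6.64, 6.76 and 6.73, and IFIT1, MX1 and IIGP1 lay between 6.50 and 7.13 in both genotypes, all below background. No array of OAS1A was thus above background with TCM.

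The antigen presentation genes overlapped between the genotypes with TCM as well. TAP1 measured 7.71, 7.79, 7.93 and 8.80 on MEKK1+/+ and 7.48, 8.02, 7.85 and 7.71 on MEKK1-/- arrays. TAP2 measured 11.36, 10.88, 10.96 and 11.44 and 10.51, 11.42, 10.92 and 11.17. PSMB8 measured 8.05, 7.69, 7.91 and 8.60 and 7.48, 8.34, 7.50 and 8.05. In TAP2 the highest arrays of the genotypes, MEKK1+/+ replicate 4 and MEKK1-/- replicate 2, were nearly level. PSME1 measured 11.43, 11.29, 11.32 and 11.47 and 10.90, 11.33, 11.06 and 11.20. H2-K1 measured 7.28, 7.06, 7.54 and 7.68 and 7.49, 7.65, 7.26 and 7.68. B2M measured 13.52, 13.67, 13.66 and 13.84 and 13.32, 13.57, 13.53 and 13.48. H2-K1 had the higher mean in MEKK1-/- cells here (0.13, SE 0.13, adjusted p = 0.811), the opposite of its untreated difference.

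The count of lower genes with TCM depended on the scale, being 33 of 48 on values as deposited (median -0.22), where the median of all genes was 0.28, and 46 of 48 on values scaled to the same median. On values as deposited the 5 sensors had a median of 0.08 and the MHC class I pair 0.12, both positive but below the median of all genes. Without both MEKK1+/+ replicate 4 arrays the median was -0.21, 44 of 48 were lower, 0 were called and 2 were lower at an unadjusted p under 0.05, where 3.00% of all genes were. Without both MEKK1-/- replicate 1 arrays the median was -0.25, 40 were lower, 0 were called and 1 was lower at that unadjusted p, where 2.98% of all genes were. Macrophage markers had a median of -0.66, with 22 of 24 lower, and their part was not tested.

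**Figure D4:**
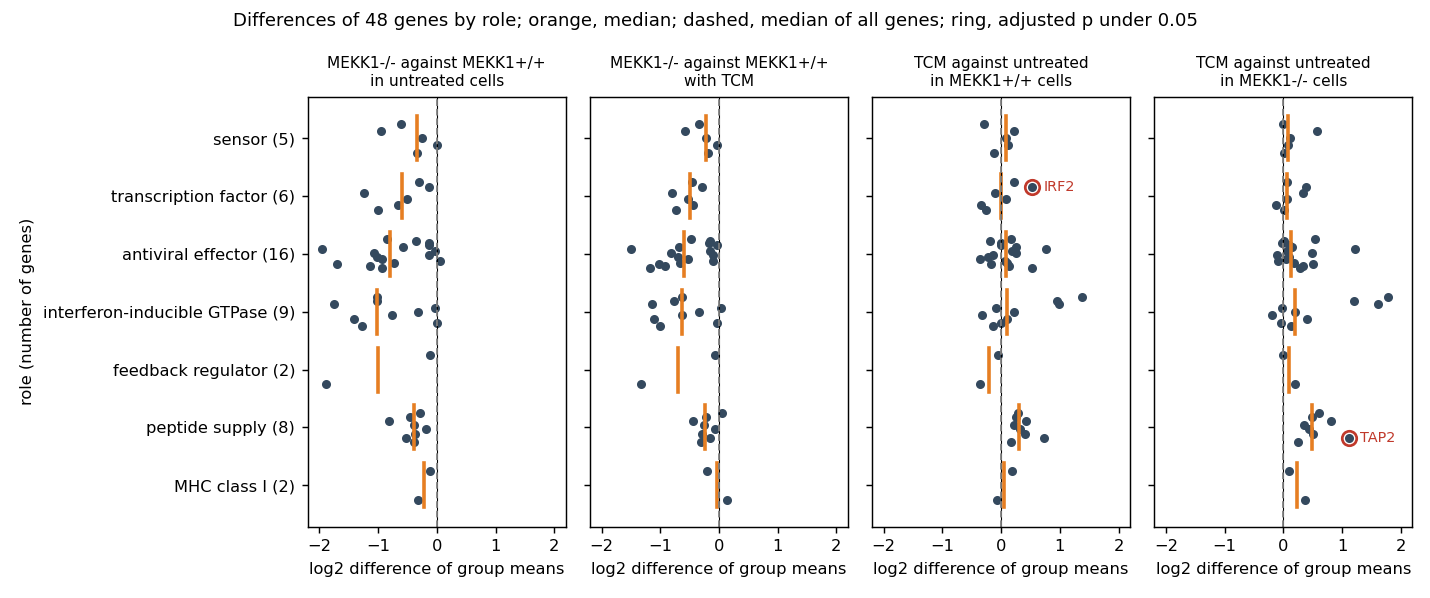
Log2 difference of group means of each of the 48 genes (points) by role, in the 4 comparisons named above the panels, with the median of a role in orange and the median of all genes dashed. Ringed genes had an adjusted p under 0.05 (IRF2 in MEKK1+/+ and TAP2 in MEKK1-/- cells with TCM). Genotype differences lie mostly left of 0, and responses of peptide supply genes lie right of 0.

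In MEKK1+/+ cells TCM moved few of these genes past the test. IRF2 rose by 0.52 (SE 0.14, adjusted p = 0.0437), and it was the only one of the 48 called, or 2.08%, where 5.01% of all genes were called. IRF2 measured 10.86, 10.69, 10.95 and 11.02 untreated and 11.02, 11.30, 11.52 and 11.77 with TCM, and the lowest treated value lay on the highest untreated one to the second decimal, without overlap. Means were higher for 30 genes and lower for 18, with a median of 0.11, while on values as deposited 9 were higher. At an unadjusted p under 0.05, 4 were higher, or 8.33%, where 8.18% of all genes were, and 0 were lower. The 4 were IRF2, GBP1, TAP2 and MX1, the last below background on every array. IRF2 was the only gene whose groups did not overlap, where 4.68% of all genes were higher without overlap. The call of IRF2 was lost when any 1 of 10 arrays was left out (all but MEKK1+/+ untreated 4 and TCM 1, and MEKK1-/- untreated 1 and 4 and TCM 1 and 2), with adjusted p-values from 0.0526 to 0.132. It was also lost on values as deposited (0.10, adjusted p = 0.711), on values scaled to the same median (0.38, adjusted p = 0.243) and without both MEKK1+/+ replicate 4 arrays (0.45, adjusted p = 0.112).

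The guanylate-binding proteins GBP1, GBP2 and GBP3 had the widest responses of the 48 genes in MEKK1+/+ cells, none of them past the test. GBP1, chosen after its values were seen, measured 9.87, 8.43, 10.08 and 11.47 untreated and 11.36, 10.51, 11.41 and 12.10 with TCM, a response of 1.38 (SE 0.57, adjusted p = 0.215). GBP2 responded by 0.95 (SE 0.45, adjusted p = 0.305) and GBP3 by 0.99 (SE 0.64, adjusted p = 0.508). Replicates 1, 2 and 3 of GBP1 were higher by more than 1 with TCM, and replicate 4, already high, by less. All 8 peptide supply genes had higher means with TCM (median 0.31), although 5 of them were lower on values as deposited (median -0.06), where the median of all genes was -0.28 and that of the 48 genes -0.20. TAP2 responded by 0.74 (SE 0.27, adjusted p = 0.157). Of the type I branch, STAT2 (-0.26, SE 0.33, adjusted p = 0.802), IRF9 (-0.34, SE 0.20, adjusted p = 0.426) and USP18 (-0.35, SE 0.71, adjusted p = 0.893) had lower means with TCM, none past the test.

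In MEKK1-/- cells TAP2 rose by 1.11 (SE 0.27, adjusted p = 0.0295) with TCM, the only one of the 48 called, or 2.08%, where 4.69% of all genes were called. TAP2 measured 9.69, 10.30, 9.90 and 9.68 untreated and 10.51, 11.42, 10.92 and 11.17 with TCM, and each treated array was above every untreated one. Means were higher for 39 genes and lower for 9, with a median of 0.18. At an unadjusted p under 0.05, 10 were higher (IRF2, GBP1, GBP2, GBP3, TAP2, PSMB9, PSMB10, PSME1, PSME2 and H2-K1), where 7.68% of all genes were, and 0 were lower. The groups did not overlap for 5 genes, IRF2, TAP1, TAP2, PSMB9 and PSMB10, all higher with TCM, where 4.90% of all genes were higher without overlap. The call of TAP2 was lost on values as deposited (1.02, adjusted p = 0.0711) and without any 1 of 6 MEKK1-/- arrays (all but untreated 2 and TCM 1), with adjusted p-values from 0.0629 to 0.100. Without both MEKK1+/+ replicate 4 arrays 4 genes were called (GBP1, TAP1, TAP2 and PSMB9), where 5.24% of all genes were. Without both MEKK1-/- replicate 1 arrays 3 were called of the 48 (GBP1, TAP2 and PSME2), where 4.24% of all genes were.

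Over all genes, deviations of same-numbered MEKK1-/- cultures correlated at over 0.1 in every pair, which met the rule for pairs. For untreated replicates 3 and 4, however, a TCM array of another number correlated at least as well. In MEKK1+/+ cells that was so for replicate 1 only. The pairing was read from these same arrays and is not given by the labels. Over the 48 genes alone the MEKK1-/- correlations were 0.419, 0.539, -0.314 and -0.03 in replicates 1 to 4, so replicates 3 and 4 did not deviate together in these genes. Those of MEKK1+/+ were 0.379, 0.853, 0.277 and 0.918, all over 0.1. On these genes alone the rule would thus pair the MEKK1+/+ numbers and not the MEKK1-/- numbers. The choice below to block MEKK1-/- numbers follows the rule over all genes. With the number as a replicate block within each genotype, 12 of the 48 genes rose with TCM in MEKK1-/- cells, or 25%, where 7.93% of all genes were called. That fit shares 1 estimate of the spread with the MEKK1+/+ arrays, whose numbers did not meet the rule over all genes. With only the MEKK1-/- numbers blocked and the MEKK1+/+ arrays left unblocked, TAP2 alone was called, where 5.12% of all genes were. With the MEKK1-/- arrays fitted by themselves 13 were called, where 8.43% of all genes were, and 11 of these were among the 12 (H2-K1 was lost, and OASL2 and PSMB10 were added). Both of these fits were chosen after the values were seen. The 12 genes were 3 guanylate-binding proteins, 5 genes of peptide supply and MHC class I (TAP1, TAP2, PSMB9, PSME1 and H2-K1), the factors IRF2 and IRF7, the effector IFIT3 and the sensor DHX58. GBP1 rose by 1.78 (SE 0.38, adjusted p = 0.0186), GBP3 by 1.61 (SE 0.33, adjusted p = 0.0157) and GBP2 by 1.21 (SE 0.23, adjusted p = 0.0107). TAP2 rose by 1.11 (SE 0.20, adjusted p = 0.00686), TAP1 by 0.50 (SE 0.07, adjusted p = 0.00288) and PSMB9 by 0.81 (SE 0.19, adjusted p = 0.0248). GBP1 and GBP3 thus had the largest rises of the 12. IFIT3 rose by 1.22 (SE 0.31, adjusted p = 0.0377) and DHX58, the relative of RIG-I known as LGP2, by 0.58 (SE 0.13, adjusted p = 0.0232). IRF7 rose by 0.34 (SE 0.07, adjusted p = 0.0180), IRF2 by 0.38 (SE 0.10, adjusted p = 0.0494), PSME1 by 0.34 (SE 0.08, adjusted p = 0.0258) and H2-K1 by 0.37 (SE 0.10, adjusted p = 0.0430). Of the 4 untreated MEKK1-/- arrays, H2-K1 was above background on 0, and IRF7 and DHX58 on 1 each. With TCM, H2-K1 was above it on 3 arrays, IRF7 on 2 and DHX58 on 3.

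The pairs differed in how far they moved. In replicates 1, 2, 3 and 4, GBP1 was higher with TCM by 0.06, 1.65, 2.81 and 2.58, and IFIT3 by 0.13, 1.21, 1.82 and 1.70. TAP2 was higher by 0.82, 1.12, 1.02 and 1.49, so that it moved in replicate 1 as well. GBP1 and IFIT3 thus hardly moved in replicate 1, the culture with the highest epithelial markers. Over all 48 genes, 17 were higher in each of the 4 MEKK1-/- pairs, or 35.4%, where 12.5% of all genes were. Of the 48, 0 were lower in each pair, where 13.5% of all genes were. The replicate numbers of MEKK1+/+ arrays did not meet the same rule for pairs. Compared by number all the same, 9 of the 48 genes were higher with TCM in each, or 18.75%, where 11.99% of all genes were. These included IFIT3, IRF2, GBP1, GBP2, TAP1 and TAP2, which were also among the 17. In MEKK1+/+ cells 4 genes were lower in each (OAS2, IRF9, IFI47 and DDX58), where 12.4% of all genes were.

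**Figure D5:**
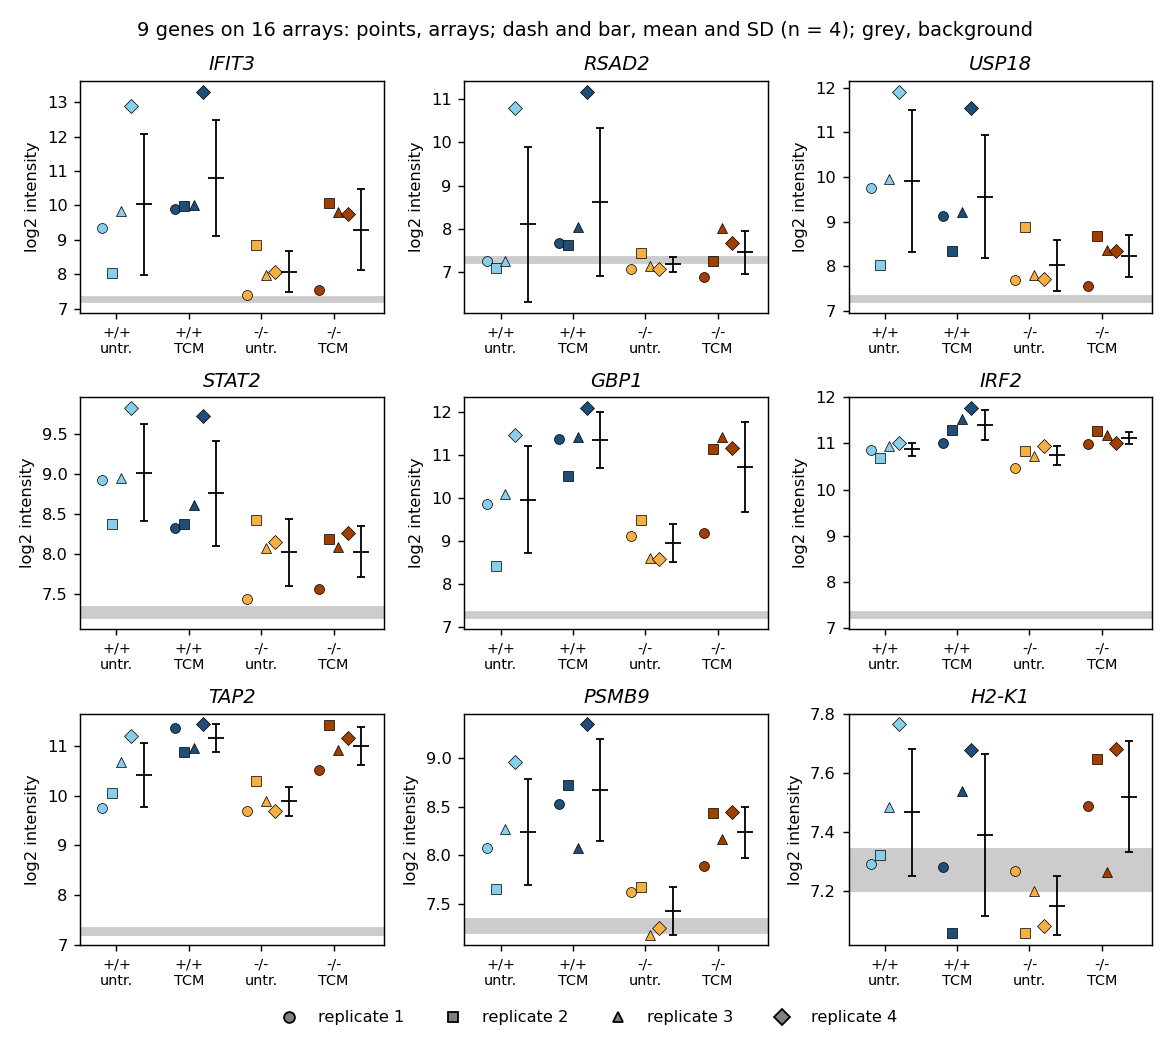
Log2 intensity of 9 genes in the 4 groups, with a point for each array (shape gives the replicate), the mean and SD of 4 arrays beside it and the range of background in grey. The diamond of MEKK1+/+ replicate 4 is on top in both treatments for IFIT3, RSAD2, USP18, STAT2 and GBP1, and for TAP2 every MEKK1-/- array with TCM lies above every untreated one.

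The response to TCM was not shown to differ between the genotypes for any of these genes. For the interaction of genotype with TCM 0 of 48 genes were called by limma, as were 0% of all genes, and the z-test called 0, where it called 0.110% of all genes. At an unadjusted p under 0.05 there was 1 (H2-K1), where 2.61% of all genes passed. H2-K1 responded by -0.08 (SE 0.13, adjusted p = 0.872) in MEKK1+/+ and by 0.37 (SE 0.13, adjusted p = 0.155) in MEKK1-/- cells. It lay near background, and in MEKK1-/- cells it was above background on 0 untreated arrays and on 3 with TCM. The median interaction was 0.18, with 36 of 48 genes above 0, on values as deposited 48 of 48, where the median of all genes was 0.29, and without untreated MEKK1+/+ replicate 4 it turned to -0.10.

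Upstream of these genes, the interferon signalling list (ligands, receptors, kinases and adaptors) had 34 genes in the table, of which 16 were above background on no array. JAK2, the kinase of the interferon gamma receptor, rose with TCM by 1.07 (adjusted p = 0.00529) in MEKK1+/+ and by 0.95 (adjusted p = 0.0104) in MEKK1-/- cells. IKBKE, a kinase that activates IRF3 and IRF7, rose by 0.51 (adjusted p = 0.0242) and 0.66 (adjusted p = 0.00551). TYK2, the kinase of the type I receptor, rose in MEKK1+/+ cells by 0.35 (adjusted p = 0.0432), and measured 0.32 (adjusted p = 0.0700) in MEKK1-/- cells. IFNZ, a type I interferon above background on 12 arrays, fell in MEKK1+/+ cells (-0.28, adjusted p = 0.0439). In all, 4 of 34 genes were called in MEKK1+/+ and 2 in MEKK1-/- cells, where 5.01% and 4.69% of all genes were. These directions are relative to the median of all genes, which on values as deposited was -0.28 in MEKK1+/+ cells. Between the genotypes limma called 0 of the 34 in either medium, with medians of -0.05 untreated (2 lower and 1 higher at an unadjusted p under 0.05) and -0.03 with TCM (2 lower and 0 higher).

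A further list had 52 genes in the table, interferon-stimulated genes and relatives of them such as IFITM5. Whether each is induced by interferon in these cells was not tested. Of the 52, 44 had lower means in untreated MEKK1-/- cells (median -0.20) and 40 with TCM (median -0.18), with 0 called by limma in either. At an unadjusted p under 0.05, 14 were lower and 0 higher untreated, and 6 were lower and 1 higher with TCM. Of all genes 4.35% and 3.65% were lower at that p. With TCM, GBP5 rose by 1.26 (adjusted p = 0.0339) in MEKK1+/+ cells, and IFITM5 by 0.56 (adjusted p = 0.0180) in MEKK1+/+ and 0.55 (adjusted p = 0.0194) in MEKK1-/- cells, with no further call. The 34 other antigen presentation genes had medians of -0.09 untreated and -0.05 with TCM between the genotypes, with 0 called by limma. At an unadjusted p under 0.05, 5 were lower and 2 higher untreated, and 2 were lower and 1 higher with TCM, where 4.35% and 3.65% of all genes were lower. Among them H2-M3, a class I molecule that presents formylated peptides, rose in both genotypes, by 0.61 (adjusted p = 0.0240) and 0.67 (adjusted p = 0.0150). RFXANK, a part of the complex at MHC class II promoters, fell in MEKK1+/+ cells (-0.31, adjusted p = 0.0157). The 34 constitutive proteasome genes served as the counterpart of the immunoproteasome. Their medians lay between -0.01 and 0.06 in the comparisons of genotype and of medium, and 1 was called, PSMC5, which fell with TCM in MEKK1+/+ cells (-0.38, adjusted p = 0.0313). With TCM 24 of the 34 had higher means in MEKK1-/- cells, 4 of them at an unadjusted p under 0.05, and 0 were lower at that p. Untreated, 0 passed it in either direction. For the response to TCM, 1 was lower and 1 higher at that p in MEKK1+/+ cells, and 0 lower and 3 higher in MEKK1-/- cells, where 7.68% of all genes were higher. Among marker lists, PDGFRA, a fibroblast receptor, rose with TCM in MEKK1+/+ (0.95, adjusted p = 0.0256) and MEKK1-/- cells (1.00, adjusted p = 0.0204), and LCK, a lymphocyte kinase, in MEKK1-/- cells (0.44, adjusted p = 0.0188). Their lists did not move as a whole in MEKK1-/- cells. There 7 of 12 fibroblast markers were higher with TCM and 5 lower (median 0.04). Of 14 lymphocyte and natural killer cell markers 7 were higher and 7 lower (median 0.0002), and 12 were above background on no array. Between the genotypes, limma called 0 epithelial (medians 0.33 untreated and 0.27 with TCM, 0 at an unadjusted p under 0.05), 0 endothelial (0.26 and 0.18, with 5 and 3 higher at that p) and 0 fat cell markers, of which 6 of 7 were above background on no array.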

How the data were processed

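The authors deposited 1 linear intensity per gene and array from Illumina Mouse 8 arrays, normalized before deposit by a method that the sources used here do not state. These values were quantile normalized, put on the log2 scale and fitted with limma 3.58.1 in R 4.3.3 (lmFit and eBayes, 4 groups together, 12 residual degrees of freedom), with Benjamini-Hochberg adjustment over 18132 genes and a threshold of 0.05, after the script was tested on simulated data. Precision is limited by how few arrays each group has. The members and gene lists were chosen with earlier results of these data known. Arrays are given for genes that were called or did not overlap between genotypes and for a fixed set of well-known genes, and other genes are said to be chosen after their values were seen. Deviations of same-numbered MEKK1-/- arrays correlated at 0.505, 0.403, 0.219 and 0.251, which met the rule for pairs (every pair over 0.1), and those of MEKK1+/+ arrays at -0.04, 0.485, 0.120 and 0.576, which did not. That pairing comes from the data, not the labels, and for MEKK1-/- replicates 3 and 4 another number correlated at least as well. Alternatives were other scalings, a z-test, filters, replicate blocks and left-out arrays. Promoter sequences are from RefSeq (GRCm38.p6).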

Additional observations from a re-analysis of the deposited data

Results flagged for a closer look

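A sample far from the other 3 of its group was looked for in each of the 48 genes and 4 groups, by the gap to the nearest array over the range of the group, against Dixon's 95% critical value. Of 192 groups, 17 passed, or 8.85%, where about 1 in 20 would pass by chance if the groups were independent. They are not, since the 48 genes were read on the same arrays, so 8.85% cannot be judged against that rate. The share of all genes that pass is not given here. MEKK1+/+ replicate 4 accounted for 11 of them, always as the highest array. Untreated, its ratios were 0.955 for RSAD2, 0.862 for PSMB8, 0.846 for OASL1, 0.840 for SOCS1 and 0.82929 for OAS3, which was below background on every array. With TCM they were 0.975 for MX2, 0.968 for IFIT3 (13.30 against 10.00 for the next array), 0.962 for OASL1, 0.956 for IRF1, 0.887 for RSAD2 and 0.851 for DHX58. MEKK1-/- replicate 2 was the highest untreated array for IGTP (0.968), USP18 (0.903) and GBP2 (0.888). MEKK1-/- replicate 1 was the lowest array with TCM for IFIT3 (0.879), GBP1 (0.879) and GBP3 (0.82942). The sources of these differences were not tested.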

How the results depend on the processing

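The genotype medians stayed below 0 under every alternative that was run, from -0.67 to -0.27 untreated and from -0.46 to -0.21 with TCM when 1 array was left out, and limma called 0 of the 48 genes in each, where the z-test called 2 untreated. In MEKK1+/+ cells the 1 gene called with TCM became 0 on values as deposited, on values scaled to the same median, with only the 2 groups compared and without both MEKK1+/+ replicate 4 arrays, 2 by the z-test, and 0 to 2 with 1 array left out. The median there was -0.20 as deposited and ran from -0.0761 to 0.32 with 1 array left out, turning to -0.0761 without TCM replicate 4 and to -0.05 without untreated replicate 2. In MEKK1-/- cells the 1 gene called became 0 as deposited, 2 with only the 2 groups compared, 4 with array weights and 8 by the z-test. Of all 18132 genes those settings called 45, 844, 1355 and 2047. The count was 4 without both MEKK1+/+ replicate 4 arrays (5.24% of all genes) and 3 without both MEKK1-/- replicate 1 arrays (4.24%). It was 0 to 3 with 1 array left out, where 477 to 1027 of all genes were called. The interaction median ran from -0.10, without untreated MEKK1+/+ replicate 4, to 0.39 with 1 array left out. On values as deposited it was 0.49, where the median of all genes was 0.29. With a replicate block within genotype 12 genes were called in MEKK1-/- cells, where 7.93% of all genes were. In MEKK1+/+ cells, whose numbers did not pair by the rule over all genes, 5 were called, where 1481 of 18132 genes were. These were OAS2, which was lower, and IRF2, GBP2, TAP1 and TAP2, which were higher and were also among the 12. In MEKK1-/- cells the count was 13 with a replicate block on MEKK1-/- arrays only, where 8.43% of all genes were called. It was 1 with a block for MEKK1-/- numbers in a fit that kept the MEKK1+/+ arrays unblocked, where 5.12% were. A replicate block over all groups moved no count of called members. The causes were not tested. Over all genes, the z-test called 817 and 460 genes between genotypes, 1916 with TCM in MEKK1+/+ and 2047 in MEKK1-/- cells, where limma called 0, 1, 909 and 851, and, in MEKK1-/- cells, 45 as deposited and 463 on values scaled to the same median. Alternatives that left out both arrays of a culture, or blocked MEKK1-/- numbers alone, were chosen after seeing the data.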
